A study of Homo sapiens with 3 samples.

Results

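The machinery described here is a set of 32 genes for the Rag GTPases, Ragulator, GATOR1, GATOR2, KICSTOR, the folliculin complex, the TSC complex, Rheb, mTORC1 and the arginine sensors SLC38A9 and CASTOR1. They were chosen by name, as the probe sets whose platform annotation gives exactly one of these symbols. Of 54675 probe sets on the array, 73 did so, and they covered 31 of the 32 genes; LAMTOR1 had no probe set under this rule, and its signal was not analysed here. All cultures were of khES3, a human embryonic stem cell line in established use, in the undifferentiated state. They spent 5 hours in medium without leucine, in medium without lysine or in complete medium. Both amino acids are essential, so human cells must take them up. Each of the 3 groups is a single culture of the same line on 1 Affymetrix array, so every difference below lacks a replicate check and carries no p-value.

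mTORC1 is a protein kinase complex that couples growth to nutrients. When amino acids are plentiful, Rag GTPases held on the lysosome by Ragulator recruit it to that surface, where Rheb switches it on. GATOR1 turns the Rag proteins off and is anchored by KICSTOR, GATOR2 opposes GATOR1, and the sensors sestrin 2 (leucine) and CASTOR1 (arginine) act through GATOR2. Folliculin with FNIP1 or FNIP2 acts on RagC and RagD, and in mouse embryonic stem cells it is known to keep the transcription factor TFE3 out of the nucleus. These switches work on proteins, whereas the arrays read mRNA.

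Signals are the authors' MAS5 intensities on a linear scale, and each difference is one of log2 values, so that 1 means 2-fold. Signals below a floor (56.7 on the leucine-deprived, 62.4 on the lysine-deprived and 54.6 on the complete-medium array) were set to it. A difference with 1 array at the floor is a bound. Of the 73 probe sets 55 passed the filter on low signals, at least 1 for each of the 31 genes, and a gene took its brightest one. The only error these arrays offer is how far probe sets of the same gene disagree. Over 5981 genes, the SD of the gap between the differences shown by a gene's 2 brightest probe sets was 0.63 after leucine removal and 0.74 after lysine removal, each over complete medium, and 0.75 between the deprivations. Among the 17 members with several kept probe sets it was 0.31, 0.57 and 0.77.

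The libraries carried the label's cell type. Of 12 markers of undifferentiated human embryonic stem cells 11 were kept, with signals of 3949 to 43101 (leucine-deprived), 2218 to 46553 (lysine-deprived) and 4980.4 to 50711 (complete). Of the 9 fibroblast or feeder markers 6 were kept, with summed signals of 27006, 30821 and 29336 in the same order of arrays. Single markers among them ran from 12.5 to 13187, from 134 to 18609 and from 79.5 to 12735 in that order. Some fibroblast or feeder transcripts were thus bright on all arrays and brightest without lysine. Which cells they came from was not tested. None of the 3 neural markers was kept, and the highest signal of a kept marker on any array was 211 for trophoblast, 161 for endoderm and 454 for mesoderm. DDIT3, the stress transcription factor CHOP, had a signal of 2830.5 on the leucine-deprived and 2776 on the lysine-deprived array, against 319 on the complete-medium array. TRIB3, a pseudokinase, had 3376 and 3258 against 242, and ASNS, asparagine synthetase, 6551 and 6875 against 2672. The ratio of 3′ to 5′ signal of ACTB, a gauge of RNA length, was 7.55, 11.2 and 5.44 on the leucine-deprived, lysine-deprived and complete-medium arrays, and its part in the differences below was not tested. Fewer cells of a type and less RNA per cell cannot be told apart in such bulk samples.

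Most members differed by less than 0.5 between deprived and complete medium, as most genes did. After leucine removal 22 members lay within 0.5 of no difference (71.0%, beside 76.6% of all genes). After lysine removal 23 did (74.2%, beside 68.7%). The median absolute difference was 0.29, beside 0.24 over all genes, after leucine removal and 0.24, beside 0.32, after lysine removal. After leucine removal the median difference of the 31 genes was 0.00, beside 0.01 over all 12961 genes. After lysine removal the median was -0.14, beside 0.00 over all genes, with 21 of 31 members below 0, beside 49.5% of all genes. Of the 21 members at or above the median level of all genes 15 lay below 0, beside 53.3% of genes that bright. Only WDR24 was at least 2-fold different after leucine removal, as a bound, where 6.39% of all genes passed that threshold (3.8% higher and 2.58% lower). After lysine removal 4 members did (12.9%), where 9.46% of all genes passed it: WDR24 was higher, and RRAGB, ITFG2 and FNIP1 were lower, where 6.04% of all genes were higher and 3.42% lower. Between the leucine- and lysine-deprived arrays 2 members differed at least 2-fold (6.45%, beside 8.43% of all genes), RRAGB and FNIP1, both higher without leucine, where 3.59% of all genes were higher and 4.85% lower. At 1.5-fold the counts were 7, 7 and 8 members in the same order of comparisons, beside 18.7%, 25.6% and 21.3% of all genes. These shares lie near the background.

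Bright signals gave tighter values. Of the members 21 lay at or above the median level of all genes, and after leucine removal all 21 differed by between -0.43 and 0.56, none of them 2-fold, where 0.879% of the 6481 genes that bright passed 2-fold. After lysine removal they ranged from -1.03 to 0.59 and 1 passed, FNIP1, where 1.82% of such genes did. FNIP1 was also the 1 bright member past 2-fold between the deprivations, where 0.37% of such genes were. The 2 comparisons with complete medium share that array, so its own deviations enter both.

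**Figure D1:**
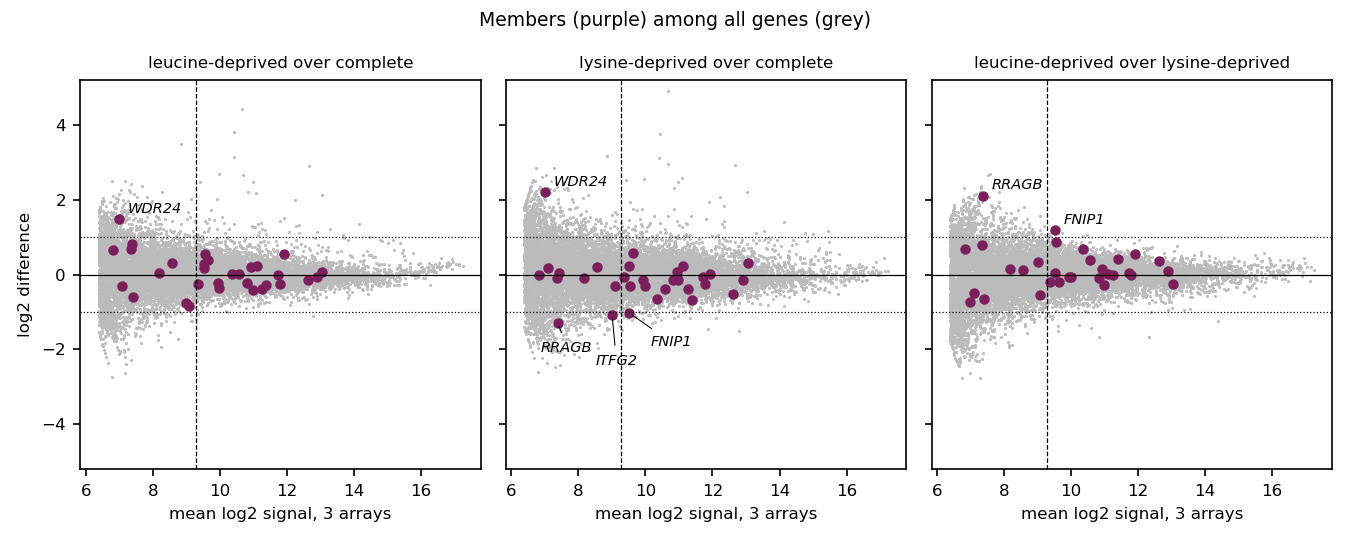
Log2 difference (vertical axis) against mean log2 signal of the 3 arrays (horizontal axis) for 12961 genes in grey and the 31 members in purple, in 3 comparisons. The dashed line marks the median level and the dotted lines mark 2-fold; members past 2-fold are named, and all of them but FNIP1 lie left of the dashed line.

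The Rag GTPases work as pairs of RagA or RagB with RagC or RagD. RRAGB, the gene of RagB, had a signal of 328 on the leucine-deprived and 76.2 on the lysine-deprived array, against 185 on the complete-medium array. It was thus highest without leucine and lowest without lysine, where it stood just above the floor. Over complete medium the difference was 0.83 after leucine removal (1.77-fold higher) and -1.28 after lysine removal (2.43-fold lower). Leucine- over lysine-deprived was 2.11 (4.31-fold higher). One dim probe set reads RRAGB, so no second one can be set beside it, and a floor at the 60th percentile leaves only bounds, of -0.33 after lysine removal and 1.15 between the deprivations.

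RRAGA, whose product is the closest relative of RagB, had signals of 2752 without leucine and 2082 without lysine, against 3367 in complete medium. Both deprived arrays were lower, by -0.29 and -0.69. RRAGC, the gene of RagC, had 4991 without leucine and 3387 without lysine, against 3383 in complete medium. The leucine-deprived array was the high one, with a difference of 0.56, while the lysine difference was 0.00. The second kept probe set of RRAGC gave the same picture, with 4343 and 3335, against 3458 in complete medium, and differences of 0.33 and -0.05. RRAGD, the gene of RagD, had 1531 without leucine and 960.1 without lysine, against 1507 in complete medium, and its lysine difference was -0.65. Its other probe set did not follow, with 578 and 733, against 761, and differences of -0.40 and -0.05. By the brightest probe set all 4 Rag genes were higher without leucine than without lysine, by 0.40 (RRAGA) to 2.11 (RRAGB). Above 0 lay 51.9% of all genes and 54.9% of the brighter ones, to which 3 of the 4 belong. The second probe set of RRAGC was at 0.38, but that of RRAGD was at -0.34. For the brightest probe sets the direction held under each of the 3 other normalizations tried.

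The folliculin complex accelerates GTP hydrolysis by RagC and RagD. FLCN itself had a signal of 830.1 without leucine and 955 without lysine, against 636 in complete medium, so that both deprived arrays were higher, by 0.38 and 0.59. A second, dimmer probe set had 180.1 without leucine, 31.8 (below the floor) without lysine and 90.2 in complete medium, which gives 0.997, just short of 2-fold, and a bound of -0.53. The probe sets of FLCN thus shared a direction only after leucine removal.

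FNIP1, a partner of folliculin, had a signal of 1007 without leucine and 439.7 without lysine, against 896 in complete medium on its brightest probe set. The lysine-deprived array was the low one, with a difference of -1.03 (2.04-fold lower), against 0.17 after leucine removal. Leucine- over lysine-deprived was 1.20, the highest value among the 6481 brighter genes. The 3 other kept probe sets of FNIP1 were dim, and each was higher without lysine than in complete medium. The first had 119.9 without leucine and 149 without lysine, against 129.9 in complete medium, with differences of -0.12 and 0.19. The next had 148 and 151, against 95.7, with differences of 0.63 and 0.66. The last had 52.9 (below the floor) and 130.4, against 85.8, with a bound of -0.60 after leucine removal and a difference of 0.60 after lysine removal. FNIP1 therefore has no single direction on these arrays, and the 2-fold call rests on 1 of 4 probe sets.

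FNIP2, the alternative partner, had 1038 without leucine and 571 without lysine, against 705 in complete medium on its brightest probe set, with differences of 0.56 and -0.30. Its other kept probe sets stayed close to complete medium: one had 516 and 504 against 548, and the other 496 and 524 against 469. Their differences lay between -0.12 and 0.16.

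**Figure D2:**
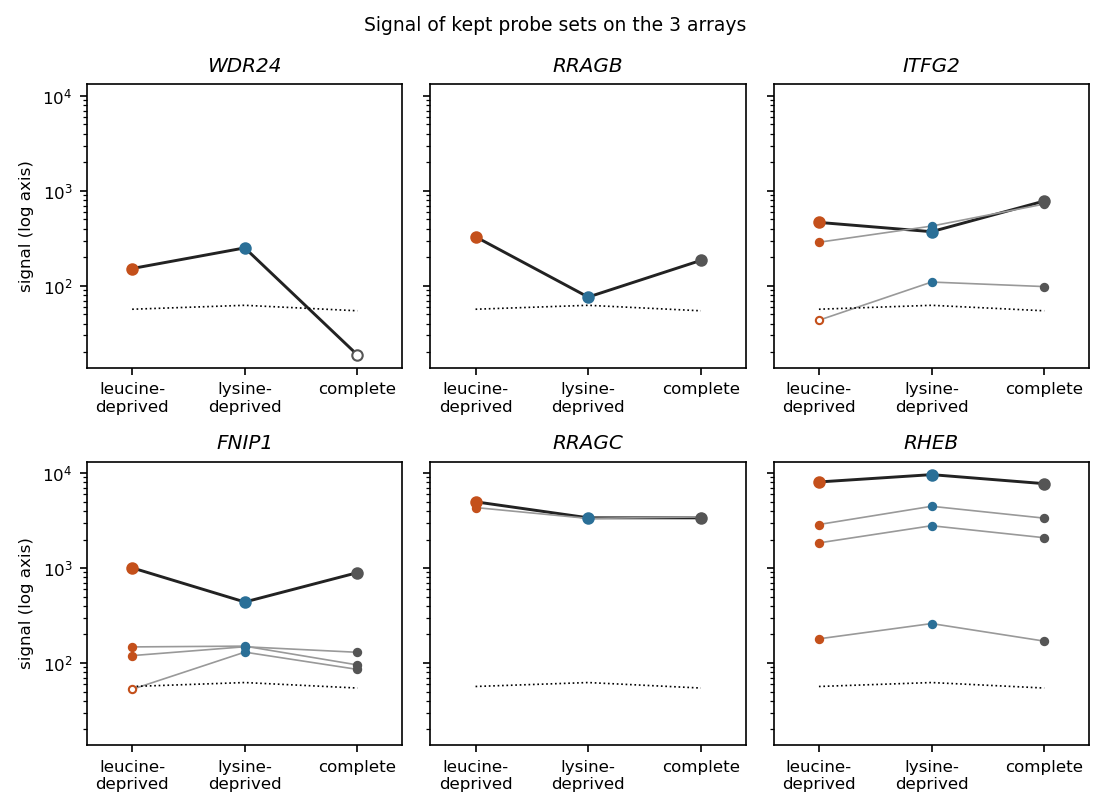
Signal on a log axis (vertical) on the leucine-deprived, lysine-deprived and complete-medium arrays for 6 members; each line is a kept probe set, the black line the brightest, open points lie below the floor and the dotted line is the floor. RRAGB and the brightest FNIP1 probe set are lowest without lysine, WDR24 is below the floor in complete medium, and the 4 RHEB probe sets are all highest without lysine.

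The DNA in front of RRAGB, FNIP1 and RRAGC is shown for 2 reasons. By the brightest probe set RRAGB and FNIP1 differed most between the deprivations, although the other kept probe sets of FNIP1 did not share its difference. All 3 genes also hold the E-box CACGTG. This palindrome is the core of the element bound by TFEB, TFE3 and other basic helix-loop-helix factors. The sequences are the 250 bases before the RefSeq start in GRCh38.p14, read 5′ to 3′ on the gene's strand, with each CACGTG in capitals. RRAGB lies at chrX:55717499-55717748 (+ strand), FNIP1 at chr5:131797018-131797267 (- strand) and RRAGC at chr1:38859773-38860022 (- strand).
RRAGB: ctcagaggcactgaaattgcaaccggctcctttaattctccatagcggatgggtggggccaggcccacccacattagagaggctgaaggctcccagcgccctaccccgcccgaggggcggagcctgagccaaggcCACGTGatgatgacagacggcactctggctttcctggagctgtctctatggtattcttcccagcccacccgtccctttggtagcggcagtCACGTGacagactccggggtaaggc
FNIP1: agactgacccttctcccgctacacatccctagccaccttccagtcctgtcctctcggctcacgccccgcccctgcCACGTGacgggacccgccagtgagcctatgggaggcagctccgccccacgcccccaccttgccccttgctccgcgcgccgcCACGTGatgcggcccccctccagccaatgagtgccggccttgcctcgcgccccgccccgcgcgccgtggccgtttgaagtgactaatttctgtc
RRAGC: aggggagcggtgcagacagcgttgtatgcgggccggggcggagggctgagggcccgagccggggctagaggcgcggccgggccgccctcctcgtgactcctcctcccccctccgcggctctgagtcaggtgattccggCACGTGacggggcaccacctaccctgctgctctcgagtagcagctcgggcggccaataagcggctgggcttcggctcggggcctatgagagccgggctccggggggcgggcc

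RRAGB held CACGTG at 115 and 25 bases before the start and again from base 8 after it, beyond the stretch printed. FNIP1 held it 175 and 94 bases before the start, and RRAGC 112 bases before it. In windows of 300 bases (250 before to 50 after the start) 7 of the 27 members with a RefSeq window held at least 1 match, 25.9% beside 8.77% of 27305 genes. The other 4 were LAMTOR1, LAMTOR4, NPRL3 and TSC2. At least 3 matches, as in RRAGB, were found in 0.110% of all genes, and at least 2 in 0.791%. TGATGNAAN, a motif of ATF4 target promoters searched on both strands, was found in TSC2 only, where it overlaps the E-box, and in 4.45% of genes. A match is a string of letters and not a bound site, and whether the E-box has a part in any difference was not tested. After leucine removal the measured members with it were at -0.39 (LAMTOR4), 0.03 (TSC2), 0.17 (FNIP1), 0.31 (NPRL3), 0.56 (RRAGC) and 0.83 (RRAGB). After lysine removal they were at -0.38, -0.11, -1.03, 0.19, 0.00 and -1.28 in the same order, so they shared no direction.

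Ragulator, the scaffold of 5 LAMTOR proteins that holds the Rag GTPases on the lysosome, was slightly lower on both deprived arrays. All 4 measured genes lay below 0 in both comparisons, with medians of -0.23 after leucine and -0.14 after lysine removal, where 48.3% and 49.5% of all genes, and 50.5% and 53.3% of the brighter ones, lay below 0. The direction held under the 3 other normalizations. LAMTOR2 had 1716 without leucine and 2098 without lysine, against 2305 in complete medium, with differences of -0.43 and -0.14. LAMTOR4 had 2229 and 2253, against 2922, with differences of -0.39 and -0.38. LAMTOR3 and LAMTOR5 were nearer to 0 on their brightest probe sets, at -0.02 and -0.06 for LAMTOR3 and -0.06 and -0.15 for LAMTOR5. Their second probe sets were lower without lysine, at -0.65 and -0.54. None reached the SD between probe sets of a gene (0.63 and 0.74). Over the brighter genes, to which all 4 belong, that SD was 0.47 and 0.58. Only the second LAMTOR3 probe set passed it, after lysine removal. SLC38A9, a lysosomal membrane protein that senses arginine and binds Ragulator, had 2349 without leucine and 2336 without lysine, against 1988 in complete medium. It was higher by 0.24 and 0.23. Its second probe set was dim, with 103 without leucine and 145 without lysine, against 74.8 in complete medium. That probe set was higher by 0.46 and 0.96.

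GATOR1, the complex that switches RagA and RagB off, showed no common direction. NPRL2 had 921 without leucine and 957 without lysine, against 1177 in complete medium, with differences of -0.35 and -0.30, and its second probe set was also lower, by -0.08 and -0.51. NPRL3 was higher by 0.31 and 0.19, and its second kept probe set by 0.30 and 0.22. DEPDC5 had 229.7 without leucine and 134 without lysine, against 143 in complete medium. Only the leucine-deprived array was higher, by 0.68.

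GATOR2, which restrains GATOR1, holds the member with the highest difference, WDR24. Its signal was 152 without leucine and 251 without lysine, against 18.7 in complete medium, which is below the floor. WDR24 was at least 2.79-fold higher without leucine and at least 4.60-fold higher without lysine. The call rests on 1 dim probe set and was lost with a floor at the 60th percentile, where the bounds fell to 0.19 and 0.91. The other 4 GATOR2 genes differed by less than 2-fold. WDR59 had 1678 and 1273, against 1675, so that only the lysine-deprived array was lower, by -0.40, and its second probe set gave -0.39. MIOS had 2113 and 1923, against 1825, and its 3 kept probe sets lay between -0.11 and 0.21 in both comparisons. SEH1L and SEC13, which also belong to the nuclear pore, were lower on both arrays. SEH1L had 3322 and 3361, against 3986, with differences of -0.26 and -0.25. Its second probe set had 499 and 387, against 694, with differences of -0.48 and -0.84. SEC13 had 6649 and 5127, against 7369, with differences of -0.15 and -0.52.

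Of the KICSTOR genes, the members ITFG2 and KPTN were lower without either amino acid, whereas KICS2, a subunit outside the 32 genes, was not. KICS2 had 340.4 without leucine and 277 without lysine, against 291 in complete medium, with differences of 0.23 and -0.07, and its second probe set was at -0.36 and 0.17. ITFG2 had a signal of 465 without leucine and 372 without lysine, against 782 in complete medium, with differences of -0.75 and -1.07 (2.10-fold lower). Its second probe set also stood lowest on the deprived arrays, with 288 and 426, against 726, and differences of -1.34 and -0.77. The third, dim one had 43.5 (below the floor) and 109.6 against 98.2, with a bound of -0.79 after leucine removal and a difference of 0.16 after lysine removal. ITFG2 thus lay below complete medium on all 3 kept probe sets after leucine removal and on 2 of 3 after lysine removal, and the mean of the 3 after lysine removal was -0.56, short of 2-fold. KPTN, kaptin, had 390.3 and 573, against 705, with differences of -0.85 and -0.30 on its only probe set. CASTOR1, the cytosolic arginine sensor that binds GATOR2, had 155 without leucine and 96.3 without lysine, against 97.8 in complete medium. It was higher by 0.66 after leucine removal only, and its second probe set, with 158, 21.0 (below the floor) and 104, was higher by 0.61.

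**Figure D3:**
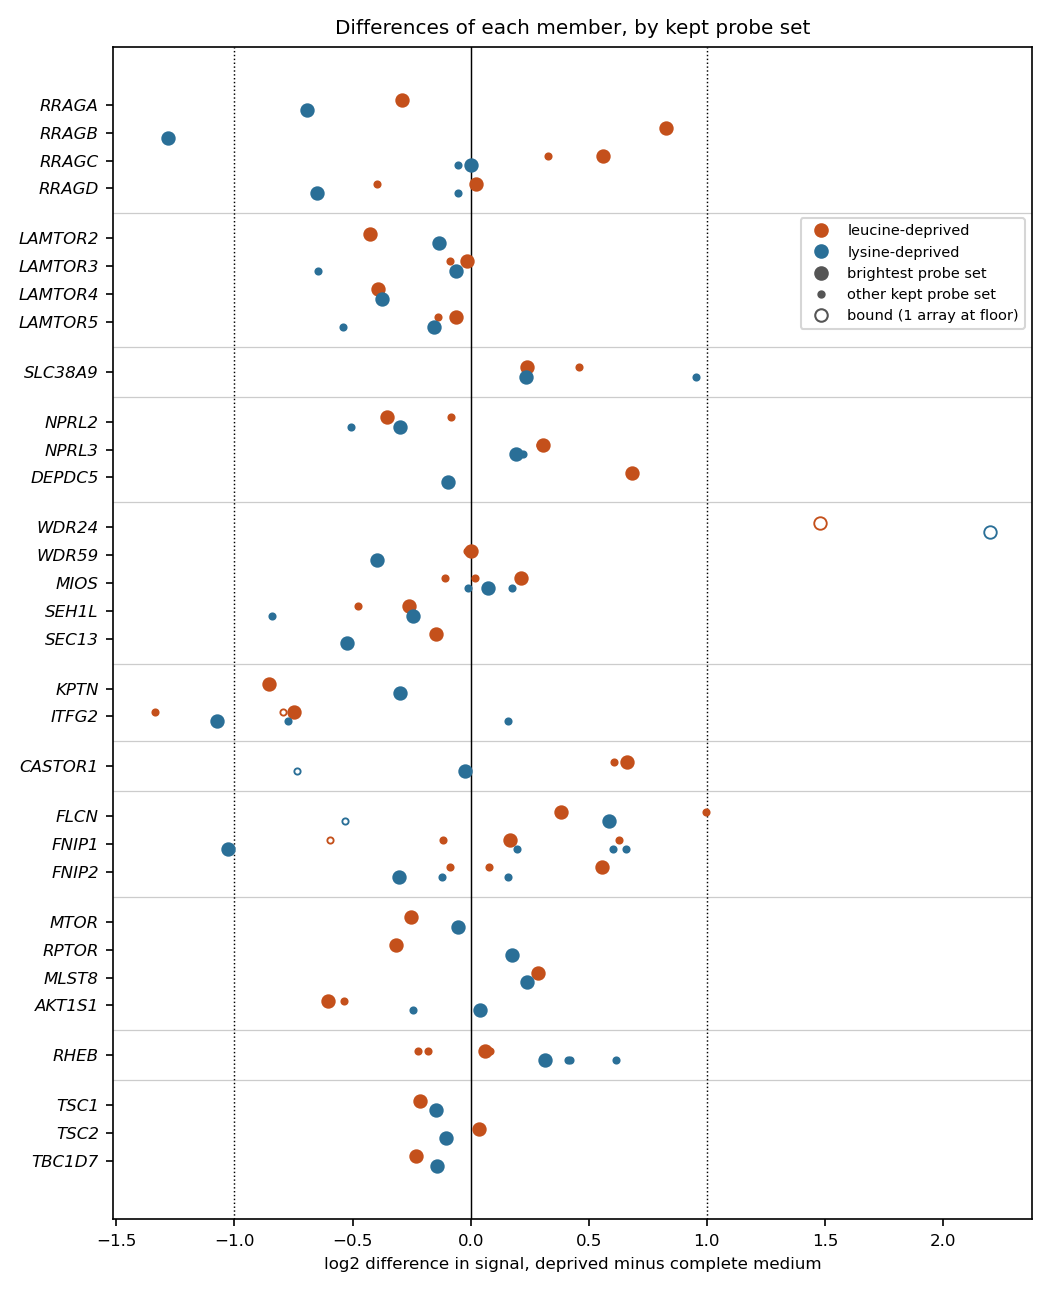
Log2 difference in signal, deprived minus complete medium, for every kept probe set of the 31 members, grouped by complex from the Rag GTPases (top) to the TSC complex (bottom); leucine-deprived in orange, lysine-deprived in blue, large points for the brightest probe set and open points for bounds. Dotted lines mark 2-fold; most points lie between them, the 4 Ragulator genes lie left of 0 and WDR24 lies right of 1.

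The growth factor and energy branch reaches mTORC1 through the TSC complex, which switches Rheb off. TSC1, TSC2 and TBC1D7 differed by between -0.23 and 0.03 after leucine removal and between -0.15 and -0.11 after lysine removal. TSC1 had 920.3 without leucine and 964 without lysine, against 1067 in complete medium, TSC2 300.1 and 272 against 293, and TBC1D7 1680 and 1787 against 1970. These differences were small beside the SD between probe sets. RHEB, the GTPase that activates mTORC1, had 8075 without leucine and 9648 without lysine, against 7751 in complete medium. Its 4 kept probe sets were all higher without lysine, by 0.32 to 0.61, whereas after leucine removal they lay between -0.22 and 0.08. All 4 were also lower without leucine than without lysine, by -0.64 to -0.26. The brightest of them is of a kind marked as cross-hybridising by its suffix. Relative to the median of all genes its lysine difference was 0.31 to 0.34 under the 4 normalizations.

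Among subunits of mTORC1 itself no gene reached 2-fold. MTOR, the kinase, had 591 without leucine and 678 without lysine, against 705 in complete medium, with differences of -0.25 and -0.06. RPTOR, the raptor scaffold, had 113 and 159, against 141, with differences of -0.32 and 0.17. MLST8 had 795 and 769, against 652, and was higher by 0.29 and 0.24. AKT1S1, the inhibitor PRAS40, had 128 and 199.5, against 194, with differences of -0.61 and 0.04. Its second probe set was lower as well after leucine removal, by -0.54.

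Among other genes that feed into mTORC1, 2 stress-responsive inhibitors had the highest differences. Of 30 listed inputs 28 were measured, with medians of 0.02 after leucine and -0.03 after lysine removal, and 2 and 3 of them passed 2-fold (7.14% and 10.7%, beside 6.39% and 9.46% of all genes). DDIT4, an inhibitor that acts through TSC, had a signal of 12609 without leucine and 12820 without lysine, against 1680 in complete medium. SESN2, the leucine sensor that binds GATOR2, had 1224 and 1015, against 437, and was 2.80-fold and 2.32-fold higher. ARF1, a small GTPase linked to glutamine sensing, was lower by -0.80 and -0.60 on 1 probe set. The third past 2-fold without lysine was CASTOR3P, a CASTOR pseudogene named after its value was seen, at 1.15. Thus the 2 inhibitors stood 2-fold or more above complete medium, while their partners in GATOR2 and TSC, apart from WDR24, did not.

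Of the 17 listed subunits of the vacuolar ATPase, the lysosomal proton pump that docks with Ragulator, 16 were measured. By the brightest probe set none passed 2-fold in either comparison, where 6.39% and 9.46% of all genes did. Of the brighter genes, among which 14 of the 16 lay, 0.879% and 1.82% did. Among the 7 kept probe sets of ATP6V0E1 the highest was at 1.06 after lysine removal, past 2-fold, whereas the brightest was at -0.46. Their median was 0.03 after leucine and -0.25 after lysine removal, with 13 of 16 below 0 without lysine, beside 49.5% of all genes and 53.3% of the brighter ones. ATP6V1E1 had 3309 without leucine and 2374 without lysine, against 4552 in complete medium, with differences of -0.46 and -0.94. ATP6V0A1 was at -0.39 and -0.999 (just short of 2-fold), and ATP6V0A2 at -0.71 and -0.59, although the highest of its 5 kept probe sets was at 0.89 after leucine and 0.79 after lysine removal. By the brightest probe set 14 of 16 were higher without leucine than without lysine, with a median of 0.26, where 51.9% of all genes and 54.9% of the brighter ones lay above 0. Other kept probe sets of some of these genes went the other way, as far as -1.66 for ATP6V0E1 and -0.59 for ATP6V1D.

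TFEB and its relatives are transcription factors that Rag GTPases and folliculin hold in the cytoplasm. TFEB had a signal of 262 without leucine and 351 without lysine, against 72.1 in complete medium, near the floor, and was higher by 1.86 and 2.28 on 1 probe set. Of 15 genes listed for these factors and their targets 13 were measured, with medians of 0.27 and 0.02, and TFEB alone passed 2-fold (7.69% in each comparison, near the 6.39% and 9.46% of all genes). WIPI1, an autophagy gene, was higher by just under 1 (0.9998) and 0.96, although its second probe set was at 0.01 and 0.07. GPNMB, a lysosomal membrane protein, was lower by -0.43 and -0.71. mTORC2 is the complex of mTOR that is insensitive to rapamycin in the short term. Of 4 subunits listed for it none passed 2-fold after leucine removal, beside 6.39% of all genes. After lysine removal 1 did, PRR5L (25%, beside 9.46% of all genes). RICTOR was higher by 0.45 and 0.79, but the lowest of its 3 kept probe sets was at -0.83 after leucine and -0.11 after lysine removal. PRR5L, on 1 dim probe set, was at -0.53 and 1.51, and PRR5 at -0.12 and 0.27, with its second probe set at -0.26 and -0.35.

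**Figure D4:**
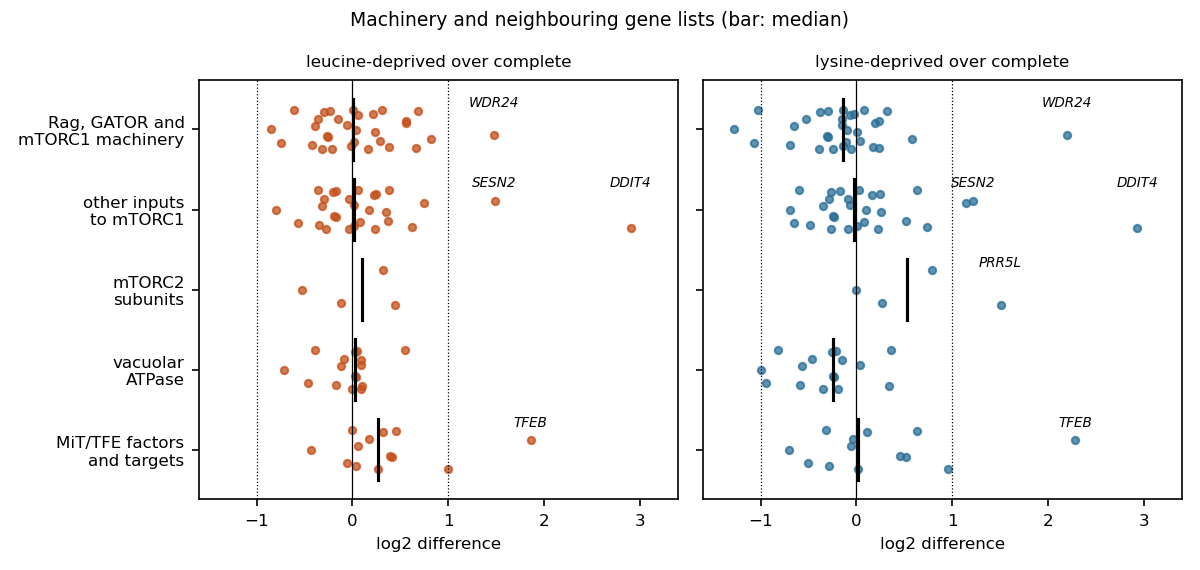
Log2 difference over complete medium for each measured gene of the machinery and of 4 neighbouring lists, leucine-deprived left and lysine-deprived right; each point is a gene's brightest probe set, the bar is the median and dotted lines mark 2-fold. DDIT4 and SESN2 stand right of the 2-fold line in both panels, as do WDR24 and TFEB, whereas most of the machinery does not.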

How the data were processed

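RNA from khES3 cells was measured on 1 array per condition. Labelling started from 100 ng of total RNA with biotin, per the labels' protocols. The authors deposited 1 signal intensity for each probe set, made with MAS5, per the submitters' processing notes; no version or setting of it is stated there. The mean of each array after trimming 2% at either end was 500.1, so arrays had been scaled to a common mean, which hides any difference in total mRNA.

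Of 54675 probe sets 62 are controls; of the others 41091 name 1 gene in the platform annotation, 1801 several and 11721 none. Signals were floored at each array's 40th percentile and taken to log2. Probe sets naming 1 gene were kept where the mean of the 3 arrays reached the median of all (23055 kept, 12961 genes), and a gene took its brightest. A 2-fold difference was counted, bounds included. With 1 array per group no test was possible, and the number of arrays limits the precision. Alternatives were 3 other normalizations, other floors, level filters and thresholds, averaging over the kept probe sets, and leaving out probe sets with the suffix _x_at or _s_at. The calculation was tested on simulated arrays.

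Full values are given for members past 2-fold and their complexes; of each neighbouring list the 3 genes with the largest mean absolute difference are named. The members and lists were chosen with earlier results of these data known. The counts among brighter genes only (median level or higher) were added after the data were seen. Promoter windows come from RefSeq on GRCh38.p14; 27 of 32 members matched. Tools were R 4.3.3 with limma 3.58.1 and Python 3.11.15 with pandas 2.3.3, numpy 2.4.6 and matplotlib 3.10.9. No per-sample columns were left unused.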

Additional observations from a re-analysis of the deposited data

Results flagged for a closer look

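RRAGB and FNIP1 stood on opposite sides of complete medium after the 2 deprivations, and the deprived arrays differed at least 2-fold from each other. For RRAGB leucine- over lysine-deprived was 2.11, with signals of 328 and 76.2, against 185 in complete medium. For FNIP1 it was 1.20 on the brightest probe set, but -0.31, -0.03 and -1.20 (with the leucine-deprived array below the floor) on the 3 others. Each group is 1 array, so the difference between the deprivations was not tested.

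A probe set that names both PLD6 and FLCN was left out because it names more than 1 gene. Its signal was 150.2 without leucine and 107 without lysine, against 35.0 in complete medium, which is below the floor. The bounds are 1.46 and 0.97 on the log2 scale. Which of the genes it reads was not tested.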

How the results depend on the processing

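No paired analysis was possible because each group has 1 array, and for the same reason no replicate could be left out. The number of members past 2-fold moved with settings that remove dim signals. After leucine removal it was 1 (WDR24) as reported and 0 with a floor at the 60th percentile (1.17% of all genes). With the level filter at the 70th percentile, which left 25 members, it was 0 (1.48% of all genes). It was 7 at 1.5-fold (18.7% of all genes) and 0 at 3-fold (1.25%). After lysine removal it was 4 as reported and 2 with the 60th percentile floor (2.21% of all genes). It was 2 with the 70th percentile filter (3.02%) and 2 when the kept probe sets were averaged (8.52%). At 1.5-fold it was 7 (25.6% of all genes) and at 3-fold 1 (2.24%). Between the deprivations it was 2 as reported and 1 with the 70th percentile filter (1.57% of all genes). It was 8 at 1.5-fold (21.3% of all genes) and 1 at 3-fold (2.08%). Where this count stayed at 2 the genes could differ: they were RRAGB and CASTOR1 when kept probe sets were averaged, and CASTOR1 and FNIP1 without probe sets with the suffix _x_at or _s_at. Averaged over its kept probe sets, FNIP1 turned to 0.107 after lysine removal and to -0.0859 between the deprivations, because the 3 dim probe sets oppose the bright one. The remaining alternatives left each count within 1.5 times its reported value. The median of the members ranged over 10 alternatives from -0.13 to 0.00 after leucine removal, from -0.38 to -0.12 after lysine removal and from 0.02 to 0.16 between the deprivations. Median centring shifted the median of all genes to -0.12 and -0.24 over complete medium, and relative to it the members' medians were -0.01 and -0.14, as without it. The 6 dimmest members by level were CASTOR1, WDR24, RPTOR, DEPDC5, RRAGB and AKT1S1.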

Other observations

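Of the 73 member probe sets 18 did not pass the filter on low signals, and all 18 were below the floor on at least 1 array, 4 of them on all 3. Their signals ran from 3.22 to 150.1. The highest belongs to a dim probe set of NPRL3, with 150.1 without leucine and values below the floor without lysine (5.72) and in complete medium (14.1), a bound of 1.46, whereas the kept NPRL3 probe sets were at 0.31 and 0.30. A left-out probe set of RHEB had 140.4 without lysine, against 64.9 in complete medium, a difference of 1.11, while another was at a bound of -0.87 with 16.3 without lysine, against 114 in complete medium.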
